A study of Mus musculus with 12 samples.

Results

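The genes described here are targets of the tumour suppressor p53 that halt the cell cycle, repair DNA or start apoptosis, measured in the liver and in aortic endothelial cells of mice lacking Dscr-1, ApoE or both. They were chosen by name, as 10 genes, and were read from microarray probe sets annotated to 1 gene only. Of the 10, 9 had such a probe set (17 probe sets), out of 18193 genes on the array with one (34945 probe sets). These were Cdkn1a, Ccng1, Gadd45a, Gadd45b, Mdm2, Trp53inp1, Phlda3, Bbc3 and Pmaip1. Bax and the p53 gene Trp53 itself are not analysed here.

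p53 is a transcription factor that is kept scarce by MDM2, an ubiquitin ligase, and builds up when DNA damage, oxidative stress or oncogenic signaling blocks that control. It then induces genes that arrest the cycle (Cdkn1a, Gadd45a), genes that feed back on it (Mdm2, Ccng1, Phlda3) and genes that open the mitochondrial route to cell death (Bax, Bbc3, Pmaip1). Several of these genes are also induced without p53, by NF-κB, TGF-β or the integrated stress response, as Gadd45b commonly is.

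All mice were adult C57BL/6J. Livers came from WT mice, Dscr-1-/- mice (called Dscr-1 null), ApoE-/- mice (ApoE null) and mice lacking both genes (double null), with 2 arrays per genotype and 8 in all. The labels give a high-fat diet (HFD) of 12 weeks for all 4 liver genotypes, while the results text of the study gives normal chow for its arrays, so the diet is not settled. Endothelial cells were grown out of the aorta of ApoE null and double null mice and kept in primary culture for several days, with 2 arrays per genotype and 4 in all, so every aortic sample was labelled as lacking ApoE and no WT aortic sample was compared. Dscr-1, encoded by Rcan1, is a feedback inhibitor of calcineurin, and ApoE carries lipoproteins to their receptors. Both null alleles are germline deletions, so liver arrays read all cells of an organ that lost the gene everywhere. The series' design text names Dscr-1 null mice as the aortic control where titles and genotype labels name ApoE null mice, and the labels were followed. Whether the 2 arrays of a genotype come from separate mice is not stated beyond their labels, so p-values measure the spread between these arrays only.

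Liver values are MAS5 signals, an arbitrary linear unit with the average of each array set to 100, and the median probe set of a liver array lay at 32.2 to 44.7. Aortic values are log2 signals with array medians of 4.45 to 4.5, and their scale cannot be set against the liver's. Apoe had a liver signal of 19937.4 to 21510.3 on the 4 arrays with the gene intact and 79.8 to 305 on the 4 arrays lacking it, while in the aortic cells its log2 value was 6.69 to 8.29, above the array medians in both genotypes. Rcan1 was not lower where Dscr-1 was labelled as lost, with 210 and 133.7 in WT against 255.2 and 353.1 in Dscr-1 null livers, 133.7 to 496.5 over all livers, and log2 values of 9.99 and 9.92 in ApoE null against 10.09 and 10.26 in double null aortic cells. The sources used here do not say where its probe set lies relative to the deletion, so the Dscr-1 genotype rests on the labels. Hprt, an X-linked purine salvage gene that no label mentions, split the arrays across genotypes. Its liver signal was 46.9 and 54.8 for WT, 65.9 for Dscr-1 null replicate 2, against 819.7 to 1018.7 on the other 5 liver arrays, and its aortic log2 value was 6.9 and 6.73 in ApoE null cells against 10.68 and 10.63 in double null cells. The methods describe a transgene placed at the Hprt locus in other mice of the study. The 4 livers lacking ApoE all had the high Hprt signal and both WT livers the low one. Hprt level and genotype thus cannot be told apart when these are compared. Among livers with ApoE only Dscr-1 null replicate 1 had the high signal, so grouping livers by ApoE nearly groups them by Hprt level. In the aortic cells Hprt level and Dscr-1 genotype cannot be told apart. The part of Hprt level in the values of the members was not tested. Hepatocyte Alb was at 27526.8 to 64005.7 in the livers, and in the aortic cells Alb was at 3.54 to 3.95 while endothelial Cdh5 was at 11.91 to 12.1. In each tissue 1 array stood apart. ApoE null liver replicate 1 correlated with the other livers at a mean of 0.835 (0.873 to 0.883 for the rest), and double null aortic replicate 2 at 0.965 (0.98 to 0.982 for the rest).

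p53 binds DNA as a tetramer, each pair of subunits reading a half-site of 10 bases, and a full site is formed by a pair of half-sites with a short spacer. The windows from 250 bases before to 50 bases after a RefSeq transcript start (build GRCm38.p6) were searched with the degenerate p53 half-site, which reads the same on both strands, with no mismatch allowed. Of the 10 genes 8 had a window. Of all 32851 windows, 8.36% held at least 1 half-site and 0.0731% (24 windows) held a full site with a spacer of 0 to 13 bases. The windows of 4 members are shown because they carry the p53 motif or, for Gadd45b, lack it. The half-sites are in capitals, and in Gadd45b the capitals mark a TATAAA box, which 13.6% of windows hold on either strand.
Cdkn1a, upstream start, chr17:29090729-29091028, plus strand: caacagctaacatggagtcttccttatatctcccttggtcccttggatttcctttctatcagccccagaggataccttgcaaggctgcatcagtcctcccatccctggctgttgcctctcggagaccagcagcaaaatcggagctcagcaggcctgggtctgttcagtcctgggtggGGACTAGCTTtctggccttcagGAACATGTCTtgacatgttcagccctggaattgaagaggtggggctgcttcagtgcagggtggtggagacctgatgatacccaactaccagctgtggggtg
Mdm2, chr10:117710709-117711008, minus strand: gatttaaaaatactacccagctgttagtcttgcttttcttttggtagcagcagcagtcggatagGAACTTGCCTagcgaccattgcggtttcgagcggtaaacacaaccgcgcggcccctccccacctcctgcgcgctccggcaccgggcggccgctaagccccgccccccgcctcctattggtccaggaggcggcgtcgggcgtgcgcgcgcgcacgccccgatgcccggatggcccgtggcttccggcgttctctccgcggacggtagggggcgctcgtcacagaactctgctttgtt
Ccng1, chr11:40755237-40755536, minus strand: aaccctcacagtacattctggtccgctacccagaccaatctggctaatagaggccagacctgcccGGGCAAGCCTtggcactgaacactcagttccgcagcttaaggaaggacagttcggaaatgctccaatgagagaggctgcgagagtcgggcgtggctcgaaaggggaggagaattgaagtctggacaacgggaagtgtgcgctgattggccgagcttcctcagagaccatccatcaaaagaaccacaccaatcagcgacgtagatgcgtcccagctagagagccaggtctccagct
Gadd45b, chr10:80929841-80930140, plus strand: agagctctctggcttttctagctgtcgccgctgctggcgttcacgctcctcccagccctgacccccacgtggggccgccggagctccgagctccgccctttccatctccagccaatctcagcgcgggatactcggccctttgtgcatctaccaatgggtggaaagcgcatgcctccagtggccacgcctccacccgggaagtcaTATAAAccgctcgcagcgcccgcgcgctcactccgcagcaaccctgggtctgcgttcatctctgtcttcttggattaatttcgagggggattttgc

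With no mismatch allowed, Cdkn1a held the only full site among the members' windows. It was a pair of half-sites with a spacer of 12 bases and began 73 bases before its upstream transcript start. The same pair lies 2863 bases before the other annotated start of Cdkn1a, whose own window held no half-site. In the upstream window the bases tgacatgttc directly follow the capitals GAACATGTCT. They were not counted because they do not match the half-site exactly. The spacer and distances given are thus those of the exact search, and a pair formed by these adjoining bases was not scored. Mdm2 and Ccng1 each held 1 half-site, beginning 186 and 185 bases before the start, and Gadd45a and Bax held 1 each at 40 and 201 bases. The TATAAA of Gadd45b began 46 bases before its start. The windows of Gadd45b, Phlda3 and Bbc3 held no half-site. A match is a description of letters in the window, and a missing match says nothing of sites outside it, such as those of Mdm2, which are known from its first intron.

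In liver, none of the 9 genes passed the test in the 7 comparisons made, which set each mutant against WT and double null against ApoE null and took the interaction and the average effects of both losses. The test was limma on log2(signal + 16), with p-values adjusted by Benjamini-Hochberg over all probe sets above the filter and a threshold of 0.05, and a filter dropped probe sets that were above the median of fewer than 2 of a tissue's arrays. Each gene is given by the brightest of its probe sets that passed this filter. All 9 genes passed the filter in liver, as did 14855 genes in all. The plot of liver signals shows the 8 arrays for each gene.

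**Figure D1:**
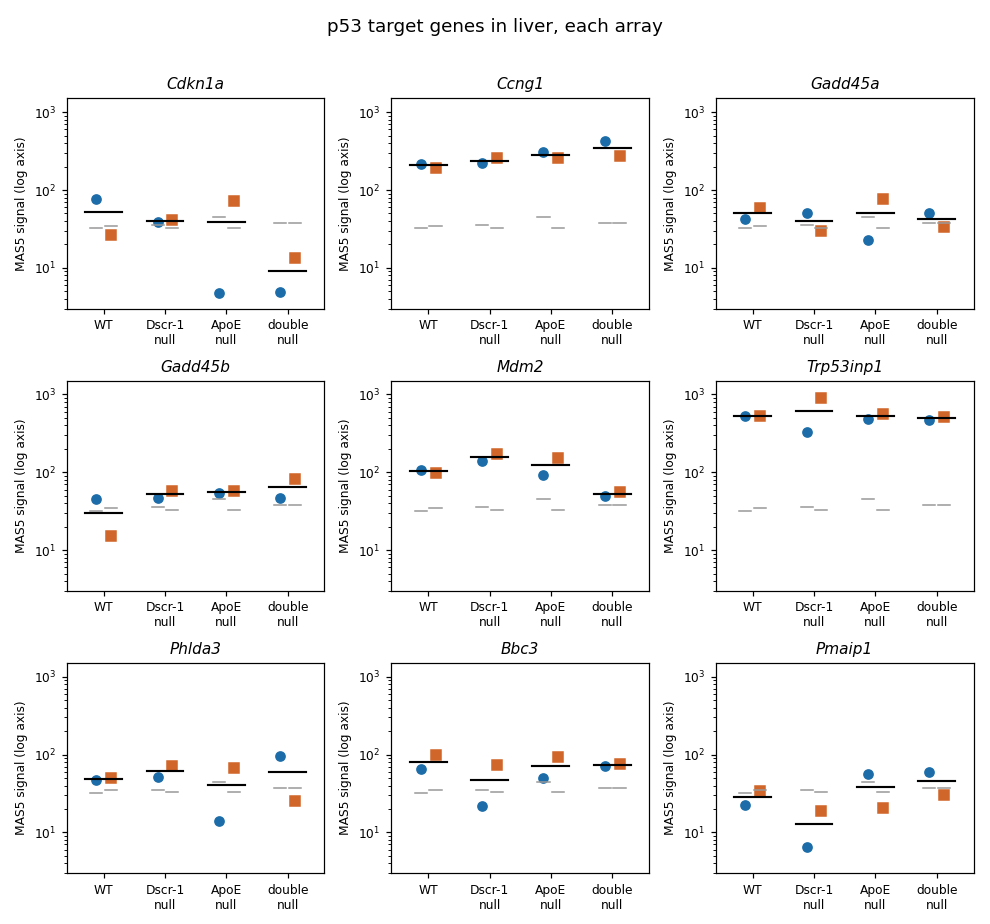
MAS5 signal (log axis) of 9 p53 target genes on each of 8 liver arrays. Blue circles are replicate 1, orange squares replicate 2, black lines the mean of 2 arrays and short grey lines each array's median. Mdm2 is lowest on both double null arrays (49.6 and 55.3), while Cdkn1a spreads from 4.7 to 72.7 between the 2 ApoE null arrays.

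Cdkn1a encodes p21, the inhibitor of cyclin-dependent kinases through which p53 arrests cells in G1. Its liver signal was 76.3 and 26.8 in WT, 38.3 and 41.7 in Dscr-1 null, 4.7 and 72.7 in ApoE null livers, with 4.9 and 13.5 in the double null livers. Both double null arrays lay below both WT arrays, but the ApoE null arrays differed from each other by 15.5-fold, and only 4 of the 8 arrays were above their array's median. The log2 difference between double null and WT was -1.34 ± 0.70 (SE; limma adjusted p = 0.88), the largest in size of the 9 genes in that comparison. A second Cdkn1a probe set, below the filter in liver, read 14.1 and 2.2 in WT and 24 and 19.8 in double null livers, the reverse order, within a range of 2.1 to 35.5 on the 8 arrays.

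Gadd45a and Gadd45b encode small proteins that bind PCNA, p21 and stress kinases and slow the G2 to M transition. Gadd45a gave 42.5 and 58.5 in WT, 50.2 and 30.1 in Dscr-1 null, 23.1 and 76.9 in ApoE null livers, with 50.9 and 33.9 in the double null livers. All 4 genotypes overlapped. Gadd45b gave 44.7 and 15.3 in WT, 46.8 and 57.2 in Dscr-1 null, 53.5 and 57.5 in ApoE null livers, with 46.8 and 81.8 in the double null livers. Every mutant array lay above both WT arrays, and the difference of lowest p in the ApoE null comparison was that of Gadd45b (0.71 ± 0.44, SE, limma adjusted p = 0.864). This rested on WT replicate 2, without which the log2 difference was 0.24. The probe set used here read near the array median in the aortic cells, where the other Gadd45b probe sets read far above it. A second Gadd45b probe set ran the other way, with 44.4 and 33.3 in WT livers and 8.5 and 13.2 in ApoE null livers (log2 difference -1.03 ± 0.47, SE, limma adjusted p = 0.788).

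Mdm2 encodes the ligase that marks p53 for degradation. Its liver signal was 106.9 and 97.8 in WT, 139.7 and 170.1 in Dscr-1 null, 91.3 and 153.8 in ApoE null livers, with 49.6 and 55.3 in the double null livers. The double null arrays were the lowest of the 8 and the Dscr-1 null arrays lay above WT. Between double null and ApoE null the log2 difference was -0.98 ± 0.38 (SE; limma adjusted p = 0.70), one of those under 0.05 before adjustment. The interaction, which asks whether losing Dscr-1 had the same effect with and without ApoE, was -1.51 ± 0.54 (SE; limma adjusted p = 0.827), also under 0.05 before adjustment. Against WT, double null mice gave -0.79 ± 0.38 (SE; limma adjusted p = 0.854). The gap between double null and ApoE null was -1.31 when replicate 1 of ApoE null was left out and -0.65 when replicate 2 was, and the p before adjustment was over 0.05 in the latter case and when either double null array was left out (-0.92 and -1.04).

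The 3 Mdm2 probe sets did not move together. The second gave 98.8 and 45.2 in WT, 83.1 and 120 in Dscr-1 null, 99.7 and 104.9 in ApoE null livers, with 96.6 and 124.7 in the double null livers. Its log2 difference between double null and ApoE null was 0.09 ± 0.43 (SE). The third gave 51.2 to 69.7 on the 4 arrays with ApoE and 14.6 to 34.4 on the 4 arrays lacking it, with no overlap (log2 difference -0.87 ± 0.27, SE, limma adjusted p = 0.635), all 4 of the latter below their array's median. The interaction on these probe sets was -0.38 ± 0.60 and 0.47 ± 0.53 (SE). A low double null level was thus seen on the brightest probe set and a low level in both ApoE-lacking genotypes on the third, and which transcripts each probe set reads was not tested.

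**Figure D2:**
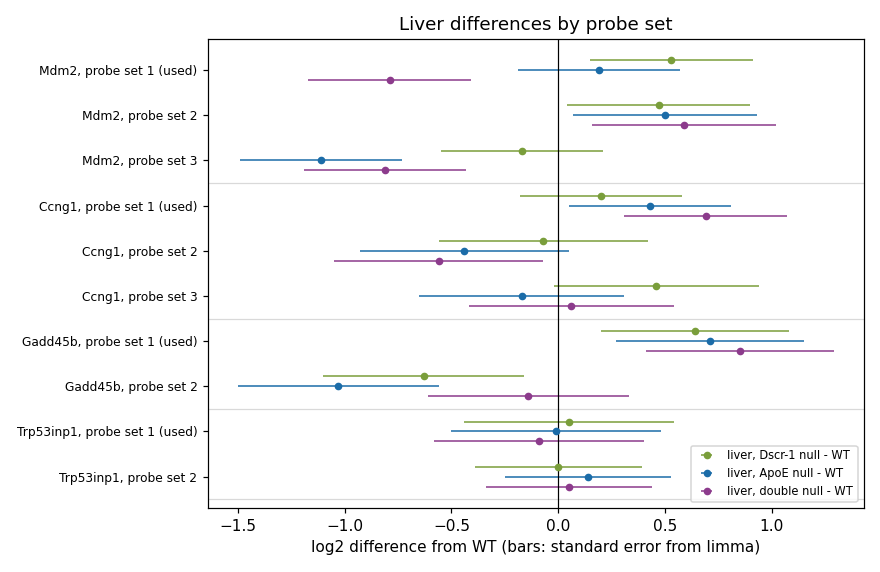
Log2 difference from WT in liver (x axis, bars are the standard error from limma) for each probe set above the filter of the 4 members with more than 1 such probe set. Points are the 3 mutant genotypes, and "used" marks the brightest probe set. In double null livers Mdm2 is at -0.79 and 0.59 on its first and second probe sets, and in ApoE null livers Gadd45b is at 0.71 and -1.03.

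Ccng1 encodes cyclin G1, which recruits a phosphatase to MDM2 and is among the most regular p53 targets in mice. Its brightest probe set gave 218.9 and 194.2 in WT, 221.5 and 257.1 in Dscr-1 null, 310.2 and 257.4 in ApoE null livers, with 430.1 and 271.5 in the double null livers. All 4 arrays lacking ApoE lay above the 4 with it, by 0.46 ± 0.27 (SE) on the log2 scale (limma adjusted p = 0.871). Read by brightest probe set, Ccng1 was the only one of the 9 genes with no overlap between these sets of 4 arrays. By the same reading 3.86% of all genes tested did not overlap. The third Mdm2 probe set, which was not its brightest, also separated these arrays. The separation of Ccng1 was close to a tie, with ApoE null replicate 2 at 257.4 and Dscr-1 null replicate 2 at 257.1. The other Ccng1 probe sets gave 191.4 to 218.2 with ApoE and 92.1 to 217.5 without, and 85.5 to 141.4 with ApoE and 47.6 to 146.1 without, so neither separated the arrays by ApoE. Phlda3 encodes a PH domain protein that competes with AKT for membrane lipids. It gave 47.1 and 50.6 in WT, 51.1 and 70.8 in Dscr-1 null, 14 and 66.3 in ApoE null livers, with 94.6 and 25.3 in the double null livers. Its gaps within the ApoE null and double null pairs were wider than those between genotypes.

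Of the genes of cell death, Bbc3 encodes PUMA and Pmaip1 encodes NOXA, BH3-only proteins that neutralise the survival proteins of the BCL2 family, and Trp53inp1 encodes a partner of p53 that works in apoptosis and autophagy. Bbc3 gave 64.4 and 97.8 in WT, 21.7 and 72.6 in Dscr-1 null, 50 and 92 in ApoE null livers, with 71.6 and 74.5 in the double null livers. It had the lowest p of the 9 genes between Dscr-1 null and WT (-0.73 ± 0.50, SE, limma adjusted p = 1), a difference that was -0.11 without Dscr-1 null replicate 1. Pmaip1 gave 22.3 and 34.3 in WT, 6.5 and 18.9 in Dscr-1 null, 57 and 20.3 in ApoE null livers, with 59.8 and 30.4 in the double null livers, and both Dscr-1 null arrays were the lowest of the 8. Only 2 of the 8 arrays, ApoE null replicate 1 and double null replicate 1, were above their array's median for Pmaip1. The order of WT and Dscr-1 null livers thus lies among values below it. Trp53inp1 gave 529.3 and 523.4 in WT, 327 and 901.5 in Dscr-1 null, 481.4 and 564 in ApoE null livers, with 473.1 and 513.9 in the double null livers. The widest gap between replicates of Trp53inp1 was in Dscr-1 null mice, whose log2 difference from WT was 0.05 ± 0.49 (SE).

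Taken over the 9 genes, the liver comparisons gave members on both sides of 0. Dscr-1 null against WT had 5 higher and 4 lower, a median log2 difference of 0.05 (-0.01 for all genes tested) and a range of -0.73 to 0.64. ApoE null against WT had 4 higher and 5 lower, with a median of -0.01 (0 for all genes) and a range of -0.55 to 0.71. Double null against WT had 4 higher and 5 lower, with a median of -0.09 (0.01 for all genes) and a range of -1.34 to 0.85. These comparisons share the WT arrays, and the ones that follow share arrays with them. Double null against ApoE null had 5 higher and 4 lower (median 0.08, 0 for all genes) and a range of -0.98 to 0.44. The members thus spread around the median of all genes in each.

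**Figure D3:**
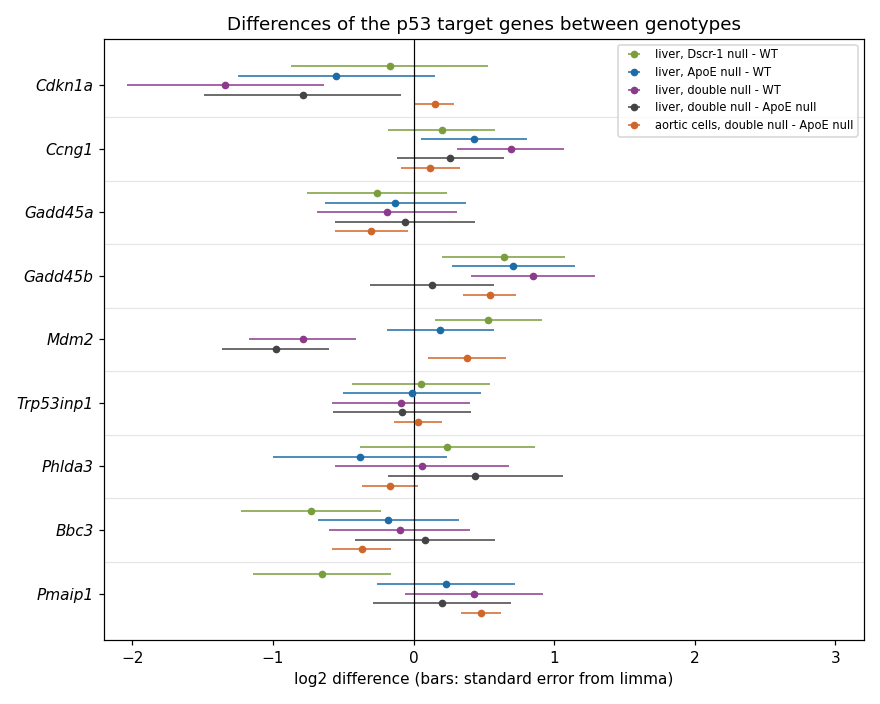
Log2 difference between genotypes (x axis) for 9 p53 target genes in 4 liver comparisons and in aortic cells. Points are limma estimates and bars their standard error. The liver bars are wider than the aortic ones, and Mdm2 in double null livers lies at -0.79 against WT and -0.98 against ApoE null.

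The share of all genes past each threshold sets these counts in context. At an adjusted p under 0.05, 0 of 9 members passed in all comparisons, against 0.00673% of all genes for Dscr-1 null and 0.0135% each for ApoE null and double null against WT, and 0% for double null against ApoE null. At an unadjusted limma p under 0.05 no member was called against WT, where 3.84%, 5.74% and 5.32% of all genes were, in the same order. Between double null and ApoE null 1 of 9 members (Mdm2) was called, against 5.32% of all genes, and in the interaction 1 of 9 (Mdm2), against 4.4%, where 0% passed after adjustment. The groups did not overlap for 5 of 9 members in Dscr-1 null against WT, 2 of 9 in ApoE null and 5 of 9 in double null against WT, and 1 of 9 in double null against ApoE null. Over all genes these shares were 33.1%, 34%, 38.2% and 32.2%. The counts of 5 held members of both directions (4 higher and 1 lower in Dscr-1 null, 2 higher and 3 lower in double null livers), and no test of them was made.

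With genotypes joined, ApoE lacking against ApoE intact (4 against 4 arrays) gave a median of -0.03 for the members (0.01 for all genes), and Mdm2 had the lowest p (-0.56 ± 0.27, SE, limma adjusted p = 0.805). No member was called, against 0.00673% of all genes after adjustment and 5.74% before it. The summed signal of macrophage markers (10 of 10 above the filter) was 4570 to 6550 in WT, 5000 to 6330 in Dscr-1 null, 8120 to 13200 in ApoE null and 12900 to 18800 in double null livers, and that of neutrophil markers (7 of 8) was 206 to 268, 278 to 328, 329 to 356 and 491 to 513 in the same order. In whole liver, fewer cells of a type and less RNA per cell cannot be told apart, and the part of these cells in the members' values was not tested. Dscr-1 lacking against Dscr-1 intact gave a median of -0.16 (0 for all genes), and Gadd45b had the lowest p (0.39 ± 0.31, SE, limma adjusted p = 0.986), which was 0.15 without WT replicate 2, 0.62 without WT replicate 1, 0.23 without double null replicate 2 and 0.13 on the second Gadd45b probe set. No member was called or free of overlap in it, where 0% of all genes passed after adjustment, 4.62% before it, and 2.85% did not overlap.

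In the aortic endothelial cells the members were well above the array medians and varied between the 4 arrays by less than 1 on the log2 scale, and none passed the test between double null and ApoE null. All 9 passed the filter, as did 11650 genes in all. The plot of aortic values shows the 4 arrays.

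**Figure D4:**
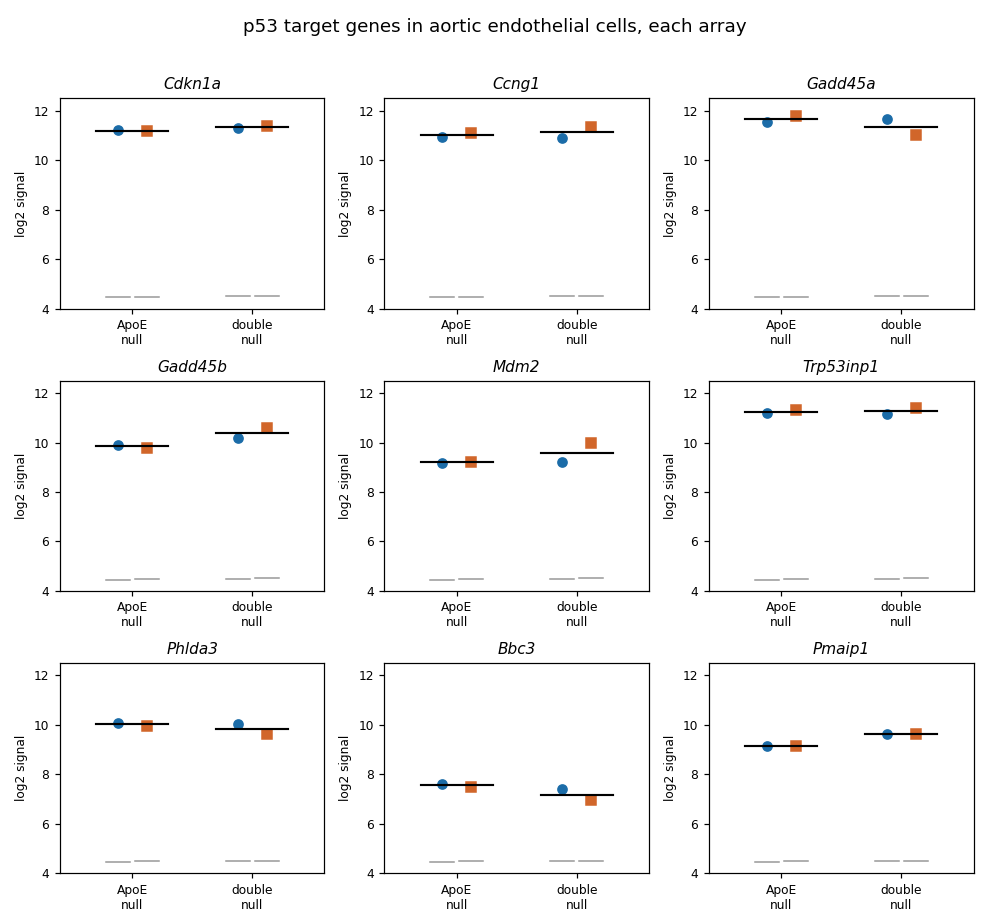
Log2 signal of 9 p53 target genes on each of 4 aortic endothelial cell arrays. Blue circles are replicate 1, orange squares replicate 2, black lines the mean of 2 arrays and short grey lines each array's median (4.45 to 4.5). Pmaip1 sits at 9.14 and 9.15 in ApoE null cells and at 9.61 and 9.63 in double null cells.

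Pmaip1 had the clearest gap, with log2 values of 9.14 and 9.15 in ApoE null against 9.61 and 9.63 in double null cells. The log2 difference was 0.48 ± 0.14 (SE; limma adjusted p = 0.969), under 0.05 before adjustment. Same-numbered arrays share a run, and the difference was 0.46 within run 1 and 0.49 within run 2. NOXA, which it encodes, neutralises MCL1. Gadd45b, read in these cells by another probe set than in liver, gave 9.88 and 9.8 in ApoE null against 10.18 and 10.59 in double null cells, a log2 difference of 0.54 ± 0.19 (SE; limma adjusted p = 1), also under 0.05 before adjustment. The within-run differences of Gadd45b were 0.3 and 0.79. A second Gadd45b probe set gave 9.7 and 9.74 against 10.04 and 10.66. The last, which is the one used in liver, lay near the array median here and gave 4.83 to 5.22 with overlap.

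Cdkn1a gave 11.23 and 11.16 in ApoE null against 11.33 and 11.37 in double null cells (log2 difference 0.15 ± 0.14, SE, limma adjusted p = 1), and Bbc3 gave 7.61 and 7.48 against 7.42 and 6.94 (-0.37 ± 0.21, SE, limma adjusted p = 1). The genotypes did not overlap for either gene, so the double null arrays read higher for p21 and lower for PUMA, neither past the adjusted threshold. Mdm2 gave 9.19 and 9.22 in ApoE null against 9.21 and 9.98 in double null cells, and Gadd45a gave 11.54 and 11.77 against 11.68 and 11.03. For both genes double null replicate 1 lay with the ApoE null arrays and replicate 2 apart from them. Ccng1 (10.94 and 11.11 against 10.91 and 11.36), Trp53inp1 (11.19 and 11.3 against 11.16 and 11.39) and Phlda3 (10.09 and 9.94 against 10.04 and 9.65) overlapped or differed within 1 run only.

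Of the 9 genes 6 were higher and 3 lower in double null cells, with a median log2 difference of 0.12 (-0.01 for all genes) and a range of -0.37 to 0.54. At an unadjusted p under 0.05, 2 of 9 were called (4.95% of all genes), after adjustment 0 (0.0172%), and 4 of 9 did not overlap (31%). With the run of the paired arrays as a block, only Pmaip1 was called before adjustment and Gadd45b was not (limma adjusted p = 0.791 for both). The count after adjustment depended on 1 array. Without double null replicate 1, so that the array that stood apart was the lone double null sample and was assumed to vary like the other genotype, 4 members passed. These were Mdm2 (0.77, adjusted p = 0.00374), Gadd45b (0.75, adjusted p = 0.00494), Gadd45a (-0.63, adjusted p = 0.0219) and Bbc3 (-0.61, adjusted p = 0.0248), among 1977 genes that passed in that limma fit. Without double null replicate 2, 0 members passed, among 472 genes, and Mdm2 and Gadd45a differed by 0 and 0.03. In the double null cells the summed signal of the macrophage markers (6 of 10 above the filter) was 2810 to 4050 against 1890 to 2070, that of the fibroblast markers (8 of 10) was 9330 to 11100 against 5150 to 5270, that of the smooth muscle markers (6 of 8) was 2560 to 6480 against 2790 to 2940, and that of the endothelial markers (10 of 10) was 19900 to 23300 against 23400 to 24000. The sums are linear, so the brightest markers weigh most in them. These were Lgals3 (log2 10.59 to 11.27) for macrophages and Dcn (12.02 to 13.09) for fibroblasts. The macrophage markers Adgre1, Cd5l, Marco and Vsig4 were below the filter. The part of these cell types in the values of the members was not tested.

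The rest of the pathway was followed through 7 lists of genes. No gene of any list passed the adjusted threshold in any of the 8 comparisons by limma. The p53 regulators, such as the kinases and ligases acting on p53, had a median log2 difference of 0.01 in livers lacking ApoE against livers with it (14 genes tested, 7 higher and 7 lower) and 0.04 in double null against ApoE null aortic cells (13 genes, 9 higher and 4 lower). None was called at an unadjusted p under 0.05 in either. As each array was left out these medians ran from -0.07 to 0.15 and from -0.06 to 0.13.

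Other p53 targets of apoptosis had a median of 0.33 in livers lacking ApoE, with 10 of 15 higher and 2 of 15 called higher at an unadjusted p under 0.05. The median was 0.13 without Dscr-1 null replicate 2 and 0.13 without ApoE null replicate 1. Beside this and the list counts that follow stand 5.74% of all genes called in that liver comparison and 4.95% in the aortic cells. The lists are small, and none was tested against these shares. Aen, an exonuclease of apoptotic cells, gave 37.5 and 27.8 in WT, 103.3 and 69.2 in Dscr-1 null, 138.9 and 126.1 in ApoE null livers, with 96.1 and 53.9 in the double null livers. It was higher in each mutant than in WT with no overlap, with log2 differences of 1.06 ± 0.40 in Dscr-1 null and 1.62 ± 0.40 in ApoE null livers (SE; limma adjusted p = 0.981 and 0.579). Casp1, the inflammatory caspase that p53 can also induce, gave 6.9 and 10.5 in WT, 66.8 and 17.2 in Dscr-1 null, 12.8 and 31.2 in ApoE null livers, with 85.5 and 93.1 in the double null livers (double null against WT 2.09 ± 0.51, SE, limma adjusted p = 0.671). Of the 8 arrays, only Dscr-1 null replicate 1 and both double null arrays were above their array's median for Casp1. Casp1 is also expressed by macrophages. Their marker sum was raised in the double null and ApoE null livers but not in the Dscr-1 null ones. The part of macrophages in the Casp1 values was not tested. In aortic cells the median was 0.08 (-0.01 to 0.13 as each array was left out, the former without ApoE null replicate 2) with 1 of 15 called, Perp, a desmosome protein (8.25 and 8.23 against 7.32 and 6.64, log2 difference -1.26 ± 0.26, SE, limma adjusted p = 0.70).

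Other p53 targets of arrest, repair and metabolism had a median of -0.13 in livers lacking ApoE, with 17 of 24 lower and 2 of 24 called lower. The median was -0.05 without double null replicate 1, and the lists were not tested against each other. Sesn2, a sestrin that restrains mTORC1, gave 53.1 to 66.6 on the 4 arrays with ApoE and 18.6 to 45.8 on the 4 without (-0.94 ± 0.28, SE, limma adjusted p = 0.624). Plk2, a polo-like kinase, was lower there by -1.07 ± 0.37 (SE; limma adjusted p = 0.684). It gave 6 and 44.4 in WT, 85 and 72.3 in Dscr-1 null, 17.3 and 14.3 in ApoE null livers, with 15.1 and 3.4 in the double null livers. WT replicate 1 thus lay among the arrays lacking ApoE, and the Dscr-1 null arrays were the highest. Only WT replicate 2 and both Dscr-1 null arrays were above their array's median. Plk2 thus passed the filter through arrays with ApoE alone, and its values without ApoE all lay below the median. Ddb2, the damage sensor of nucleotide excision repair, gave 100.2 and 61.1 in WT livers and 15.2 to 48.3 on the 6 mutant arrays, below WT in all 3 mutants. These comparisons share the WT arrays, and every mutant array but ApoE null replicate 2 lay below its array's median. In aortic cells the median was 0.04 (-0.06 to 0.11 as each array was left out, the former without ApoE null replicate 2), with 1 of 24 called lower, Ephx1 (-0.43 ± 0.16, SE, limma adjusted p = 1).

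**Figure D5:**
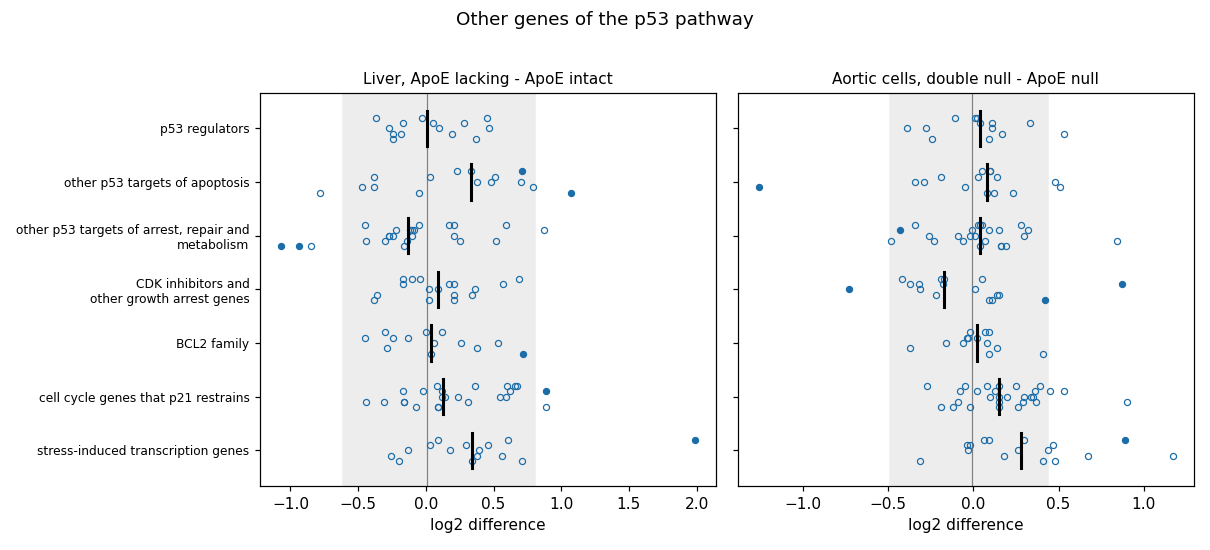
Log2 difference of each tested gene of 7 pathway lists, in livers lacking ApoE against livers with it (left) and in double null against ApoE null aortic cells (right). Filled circles have an unadjusted limma p under 0.05, black bars are list medians, the grey line is the median of all genes and the shaded band holds the middle 90% of all genes. Most genes of each list lie inside the band, and the filled circle farthest right in liver is Egr1 at 1.99.

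CDK inhibitors and other growth arrest genes had a median of 0.09 in livers lacking ApoE, with 0 of 17 called, and of -0.17 in aortic cells, with 2 called higher and 1 lower of 17. The liver median ran from -0.03 to 0.13 and the aortic one from -0.17 to -0.02 as each array was left out, the ends nearest 0 or past it being without ApoE null liver replicate 1 and double null aortic replicate 2. In those cells Cdkn2b, the inhibitor p15, gave 9 and 9.01 in ApoE null against 9.37 and 9.47 in double null (0.42 ± 0.15, SE, limma adjusted p = 1), and Rb1, the retinoblastoma protein gene, 9.31 and 9.36 against 8.72 and 8.49 (-0.73 ± 0.16, SE, limma adjusted p = 0.731). The third was Gas7, higher by 0.87. The BCL2 family had medians of 0.04 in liver (1 of 13 called, Bcl2l11, which encodes BIM, 0.72 ± 0.26, SE, limma adjusted p = 0.69) and 0.02 in aortic cells (0 of 13 called), which ran from -0.12 to 0.14 and from -0.13 to 0.17 as each array was left out.

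Cell cycle genes that p21 restrains had a median of 0.13 in livers lacking ApoE, with 17 of 24 higher and 1 called, Foxm1 (0.89 ± 0.34, SE, limma adjusted p = 0.716). Leaving out each liver array in turn gave medians of 0.14 to 0.30. Foxm1 gave 5 and 5 in WT and 37.8 and 57.6 in double null livers, and all 6 arrays of the other genotypes lay below their array's median. Foxm1 thus passed the filter through the double null arrays alone. Its Dscr-1 null arrays read 17.6 and 9.8. Those of ApoE null livers read 35.7 and 6.3, so replicate 2 lay below both Dscr-1 null arrays. The arrays lacking ApoE thus did not all lie above those with it. In aortic cells the median was 0.15, with 21 of 28 higher and 0 called. This aortic median was 0.39 without double null replicate 1 and -0.01 without replicate 2, and 0.31 and 0.08 without ApoE null replicates 1 and 2. Stress-induced transcription genes had medians of 0.34 in liver (12 of 15 higher, 1 called) and 0.28 in aortic cells (12 of 16 higher, 1 called). The liver median was 0.18 without Dscr-1 null replicate 1 and 0.22 without ApoE null replicate 2, and the aortic one 0.47 and 0.20 without double null replicates 1 and 2. Egr1, an immediate early gene, gave 37.4 and 47.8 in WT, 73 and 164.8 in Dscr-1 null, 169.2 and 790.8 in ApoE null livers, with 239 and 337.5 in the double null livers (1.99 ± 0.49 for ApoE lacking against intact, SE, limma adjusted p = 0.597). Ppp1r15a, the GADD34 phosphatase subunit of the integrated stress response, gave 23.7 and 32.3 in WT and 67.4 to 95.2 on the 6 mutant arrays. The mutants were all set against the same WT arrays, both below their array's median. Ppp1r15a thus passed the filter through mutant arrays alone. Its log2 difference from WT was 1.23 ± 0.35 in Dscr-1 null livers (SE; limma adjusted p = 0.89). In ApoE null and double null livers it was 0.98 ± 0.35 and 1.01 ± 0.35 (SE; limma adjusted p = 0.69 and 0.716). In aortic cells Atf3 gave 8.79 and 8.59 against 9.24 and 9.93 (0.89 ± 0.27, SE, limma adjusted p = 0.977).

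In the remaining liver comparisons 0 to 3 genes of a list were called at an unadjusted p under 0.05. The list medians there ran from -0.10 to 0.27 for Dscr-1 null and from -0.19 to 0.58 for ApoE null against WT. For double null against WT they ran from -0.14 to 0.43. The highest in each of these 3 was that of the other p53 targets of apoptosis. These 3 comparisons share the WT arrays, and in the last the stress-induced transcription genes lay at 0.42. Between double null and ApoE null the list medians ran from -0.31 to 0.12. For the interaction they ran from -0.42 to 0.16, and for Dscr-1 lacking against intact from -0.14 to 0.35.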

How the data were processed

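Total RNA of 8 livers and 4 aortic endothelial cell samples was hybridised to Affymetrix Mouse Genome 430 2.0 arrays. The authors deposited liver values as MAS5 signals (intensity, linear, average set to 100), and the trimmed mean of each liver array lay at 99.3. Aortic values were deposited as log2. The methods describe the MAS5 scaling to 100 for the arrays without naming a tissue, but taken out of log2 the trimmed means of the aortic arrays were 161 to 169, so that scaling does not describe them and how they were normalized is unknown. Transcriptome Analysis Console is named, with no version, in the submitters' processing notes. Arrays have no read depth, so the number of arrays limits the precision.

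Of 45037 probe sets (64 control probe sets left out), 34945 were annotated to 1 gene, 932 to several and 9160 were unnamed here. Symbols were updated by Entrez identifier for 34741. Each tissue was fitted separately with limma 3.58.1 in R 4.3.3 (lmFit and eBayes, a mean per genotype, with 4 residual degrees of freedom for liver and 2 for the aortic cells) on log2(signal + 16) in liver and on the deposited log2 values in aortic cells, with no further scaling. Probe sets were kept if above their array's median on at least 2 arrays (32005 in liver, 22927 in aortic cells), and Benjamini-Hochberg adjustment ran over these. A gene was read from its brightest kept probe set. Comparisons were the 4 pairs of liver genotypes described, the interaction, the average effects of ApoE and of Dscr-1 loss, and the aortic pair.

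The members and the 7 pathway and 8 cell marker lists were chosen with earlier results of these data known. All members were named, with statistics where the unadjusted p was under 0.05 or was the lowest of a comparison, and further values where arrays separated. List genes were named by lowest unadjusted p, up to 3 a list. Hprt, and Cdkn1a, Ccng1 and Bbc3 statistics outside that rule, were picked after their values were seen. On simulated data with 50 genes per step, the liver comparison of double null with ApoE null recovered 0%, 8%, 38% and 54% of genes changed by 1, 2, 3 and 4 on the log2 scale (0 false calls among 14855 genes), and the aortic comparison 0%, 60%, 74% and 80% (3 false calls among 11650 genes). Other offsets, filters, scalings, probe set rules, a replicate block, the methods' Student test and leaving out each array were tried. Deviations of same-numbered aortic arrays, which the source names place in 1 run, correlated at 0.297, and those of liver arrays at -0.00155 to 0.0293, so only the aortic numbers were taken as pairs.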

Additional observations from a re-analysis of the deposited data

Results flagged for a closer look

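The effect of Dscr-1 loss on the brightest Mdm2 probe set pointed in opposite directions in liver with and without ApoE. Both Dscr-1 null arrays (139.7 and 170.1) lay above both WT arrays (106.9 and 97.8), and both double null arrays (49.6 and 55.3) lay below both ApoE null arrays (91.3 and 153.8). The interaction was -1.51 ± 0.54 on the log2 scale (SE), which was under 0.05 before adjustment and did not pass after it (limma adjusted p = 0.827). It was -0.38 and 0.47 on the other Mdm2 probe sets, so 1 of 3 probe sets carried it.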

How the results depend on the processing

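The number of members past the adjusted threshold was 0 in 142 of 143 alternatives over the 8 comparisons. The exception was in the aortic cells, where leaving out each array in turn gave 0 to 4 members, 4 being without double null replicate 1. Gadd45b there was 0.75 (limma adjusted p = 0.00494), and its range over arrays left out was 0.34 to 0.75, that of Pmaip1 0.46 to 0.49. Of 147 alternatives for single differences, 141 kept direction and side of the threshold and 5 reversed. Gadd45b in ApoE null against WT livers was -0.16 with the mean of all its probe sets and -1.03 with the next brightest one, and Mdm2 with the next brightest one was 0.59 (double null against WT), 0.09 (double null against ApoE null) and 0.31 (ApoE lacking against intact). The next brightest probe set was added after seeing the data, and the cause was not tested. Over arrays left out the Mdm2 interaction ran from -1.84 to -1.18. The list medians, added after seeing the data, moved by more than the spread in 11 of 336 alternatives. With median centring the median of all genes was -0.14 in ApoE null and -0.11 in double null against WT livers (0 and 0.01 without it), and 4 and 3 members were higher. With the replicate number as a block (the shared run) the aortic count of members stayed at 0, Pmaip1 was 0.48 ± 0.12 (SE; limma adjusted p = 0.791) and Gadd45b 0.54 ± 0.18 (SE; limma adjusted p = 0.791), so 1 and not 2 members was called before adjustment. In liver, where the number does not pair arrays, the block also left 0 members. With 2 arrays per genotype, differences of about 1 on the log2 scale were below what this design could call.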
